A study of Mus musculus with 8 samples.

Results

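Immediate early genes are the genes a cell transcribes within minutes of a signal, without first making new protein, and 10 of them (Fos, Fosb, Jun, Junb, Egr1, Ier2, Nr4a1, Dusp1, Klf6 and Btg2) were followed in RNA-seq libraries of DN3 thymocytes. They were taken by gene symbol from the deposited table, which holds 16538 protein-coding genes, and all 10 symbols were found. The genes were selected on earlier results of the same libraries, namely their RPKM by genotype and by replicate, so the differences between genotypes and between replicates below are a description of these genes and carry no p-value. DN3 cells (Lin- CD4- CD8- CD44- CD25+) are the T cell precursors in the thymus that rearrange the T cell receptor β chain and must pass β-selection. They were sorted from C57BL/6 mice of 6 weeks, 4 libraries from control mice and 4 from Sel1l CKO mice. Both groups carry Sel1l alleles flanked by loxP sites (labelled Sel1l-f/f), and the Sel1l CKO mice carry in addition the hCD2cre transgene, a recombinase under the human CD2 promoter that is active from the early T lineage precursor onwards. SEL1L is the adaptor of the HRD1 ubiquitin ligase, which removes misfolded proteins from the endoplasmic reticulum. Whether animals were pooled for a library is not given in the sources used here, so the spread between libraries may be partly technical. In bulk libraries such as these, fewer cells expressing a gene and less RNA per cell cannot be told apart.

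The products of these genes fall into 3 kinds. FOS and FOSB pair with JUN and JUNB to form AP-1, a transcription factor that binds its target genes as a dimer. EGR1 and KLF6 are zinc finger transcription factors, and NR4A1 is an orphan nuclear receptor that is widely used as a reporter of T cell receptor signalling. IER2 is a small nuclear protein, DUSP1 is a phosphatase that switches off MAP kinases, and BTG2 is an antiproliferative protein that works with the CCR4-NOT deadenylase. In T cells the genes are switched on by antigen receptor signals and by cell stress through MAP kinases, the serum response factor SRF and the factor CREB, and their mRNAs are short-lived. At β-selection the pre-T cell receptor is known to induce Egr family members.

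The promoter stretches shown first are those in which CREB-type sites can be read, since members of the list share such letters and differ in where they lie. The sequences are from RefSeq (GRCm38.p6), which gave a window of 250 bases before and 50 bases after the start site for 8 of the 10 genes, all but Egr1 and Ier2. Each stretch has 100 bases, 5′ to 3′ on the strand of the gene, and capitals mark TGACG or its complement, the half-site of the cAMP response element TGACGTCA. The stretches of Fos, Nr4a1 and Jun end at the base before the start site, and those of Dusp1 and Btg2 lie further upstream, their first base 200 bases before it. Jun is shown as a member without the half-site.
Fos, chr12:85473790-85473889, plus strand: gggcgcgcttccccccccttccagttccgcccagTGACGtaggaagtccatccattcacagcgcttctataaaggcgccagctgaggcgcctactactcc
Nr4a1, chr15:101266746-101266845, plus strand: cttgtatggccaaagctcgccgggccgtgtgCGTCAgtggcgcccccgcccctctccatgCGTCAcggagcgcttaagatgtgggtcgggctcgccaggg
Dusp1, chr17:26508573-26508672, minus strand: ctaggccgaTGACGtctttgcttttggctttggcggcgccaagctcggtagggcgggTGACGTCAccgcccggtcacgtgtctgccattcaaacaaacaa
Btg2, chr1:134079256-134079355, minus strand: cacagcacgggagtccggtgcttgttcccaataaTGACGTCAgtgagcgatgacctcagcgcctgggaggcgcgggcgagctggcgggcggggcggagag
Jun, chr4:95052223-95052322, minus strand: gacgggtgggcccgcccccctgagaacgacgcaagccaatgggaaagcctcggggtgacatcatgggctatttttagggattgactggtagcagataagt

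The half-site TGACG was found on either strand in the windows of 6 of the 8 genes, Fos, Fosb, Junb, Nr4a1, Dusp1 and Btg2, against 20.8% of all 32851 windows and 36.5% of the 5210 windows of genes tested here. This motif was added after the windows had been seen, and it is contained in the full element. The full TGACGTCA was present in 2 of the 8 windows, those of Dusp1 and Btg2, against 1.79% of all windows and 3.70% of those of tested genes. TATAAA was in the windows of Fos and Junb (2 of 8, against 13.6% of all windows and 6.49% of those of tested genes). It began 33 bases before the start site in Fos and at the start site itself in Junb. The GC box GGGCGG was in 7 of 8, all but Junb, against 35.7% of all windows and 67.8% of those of tested genes. Neither the CArG box bound by SRF nor the AP-1 site TGACTCA was in any of the 8 windows. The CArG box was in 1.63% of all windows and 1.25% of those of tested genes, the AP-1 site in 5.20% and 2.94%. Their absence says only that these letters do not lie within these windows. Dusp1 and Btg2, which share the full element, had the profiles over the 8 libraries nearest to and farthest from the rest of the list. Whether these letters bear on the values was not tested.

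All values are RPKM, the reads of a gene per unit of gene length and of library depth, as the authors deposited them. The reads counted on genes, recovered from the steps between low values, were between 32900253 and 50401359 per library. The 10 genes were well covered, with the lowest count in the list at 601 reads (Egr1 in Sel1l CKO replicate 1) and the highest at 54651 reads (Jun in control replicate 4), so that counting error is small beside the differences between libraries. Together they took 0.13% and 0.114% of the reads in control replicates 1 and 2, and 0.482% and 0.460% in control replicates 3 and 4. In the Sel1l CKO libraries their share was 0.0832% and 0.0583% in replicates 1 and 2, and 0.164% and 0.180% in replicates 3 and 4. The 10 genes thus stood apart by replicate as well as by genotype, with control replicates 3 and 4 at the top. Neither the labels nor the study's methods name replicates 1 and 2 or 3 and 4 as a batch. Each pair holds libraries of both genotypes, 2 of each, so the genotypes are compared within the pairs below.

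**Figure D1:**
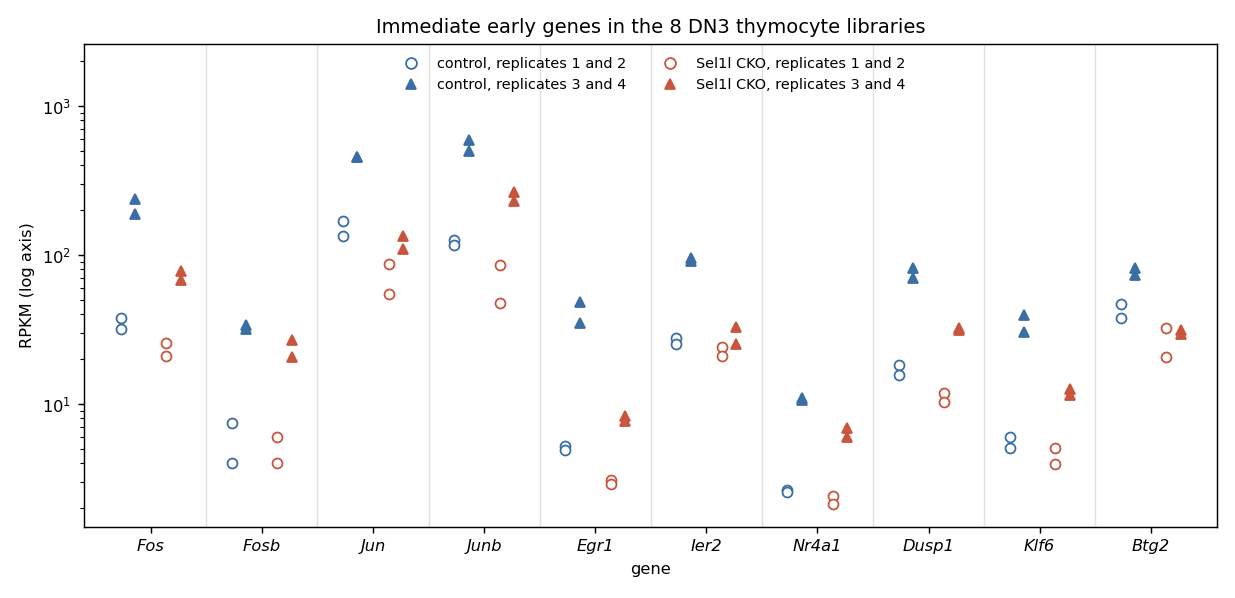
RPKM of the 10 immediate early genes (y axis, log scale) in each of the 8 DN3 libraries, 1 point per library, with control in blue, Sel1l CKO in red, open circles for replicates 1 and 2 and filled triangles for replicates 3 and 4. In each gene the control triangles are the 2 highest points, and they lie above the Sel1l CKO triangles.

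Fos, on chromosome 12 (GRCm38, 85473890 to 85477273, plus strand), had 37.8, 32.0, 188 and 239 RPKM in the control libraries, in the order of replicates 1 to 4, against 25.7, 21, 68.0 and 78.1 RPKM in the Sel1l CKO libraries. Control replicates 3 and 4 stood far above the other libraries, and Sel1l CKO replicates 3 and 4 came next, above control replicates 1 and 2. The genotypes therefore overlapped over all libraries but not within either pair of replicates. The mean was 124 ± 105 RPKM in control, against 48.2 ± 29.0 in Sel1l CKO (mean ± SD, n = 4 libraries each), which makes a log2 difference of -1.06 with a standard error (SE) of 0.73. Sel1l CKO was at 66.9% of the control mean within replicates 1 and 2 and at 34.2% within replicates 3 and 4.

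Fosb, the paralogue of Fos (chromosome 7, 19302696 to 19310051, minus strand), had 7.48, 4.04, 32.0 and 34 RPKM in control, against 5.96, 4.03, 26.7 and 20.7 RPKM in Sel1l CKO. It differed least between genotypes of the 10 genes, with a log2 difference of -0.32 (SE 0.82). Replicates 1 and 2 overlapped between genotypes, since control replicate 2 and Sel1l CKO replicate 2 were nearly equal, while in replicates 3 and 4 both Sel1l CKO libraries were below both control libraries. The gap between the pairs of replicates, given here and for the other genes as the fold that the difference in mean log2(RPKM + 0.1) makes, was far larger, at 5.90-fold in control and 4.72-fold in Sel1l CKO.

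Jun (chromosome 4, 95049034 to 95052222, minus strand, a gene of a single exon) had 168, 134, 457 and 454 RPKM in control, against 86.4, 54.8, 110 and 133 RPKM in Sel1l CKO. Every Sel1l CKO library was below every control library, the closest being Sel1l CKO replicate 4 and control replicate 2. The mean was 303 ± 176 RPKM in control, against 96.1 ± 33.5 in Sel1l CKO, which is 31.7% of control and a log2 difference of -1.52 (SE 0.44). Within replicates 1 and 2 the log2 difference was -1.12, the largest difference of the list there, and within replicates 3 and 4 it was -1.91.

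Junb (chromosome 8, 84974484 to 84978718, minus strand) had 127, 116, 592 and 499 RPKM in control, against 85.0, 47.4, 229 and 263 RPKM in Sel1l CKO. It had the most even genotype difference over the pairs of replicates, at -0.93 in replicates 1 and 2 and -1.14 in replicates 3 and 4 on the log2 scale. Sel1l CKO replicates 3 and 4 were nevertheless well above control replicates 1 and 2, so the genotypes overlapped as a whole, with means of 333 ± 248 and 156 ± 106 RPKM.

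The make-up of AP-1 transcripts differed between libraries as well. For every read on Jun there were 0.238 and 0.254 reads on Fos in control replicates 1 and 2 and 0.437 and 0.557 in replicates 3 and 4, and in Sel1l CKO there were 0.315, 0.407, 0.657 and 0.622 in replicates 1 to 4. Within each pair of replicates both Sel1l CKO libraries thus had more Fos per Jun than both control libraries. Junb reads per Jun read were 0.434, 0.50, 0.747 and 0.633 in control and 0.568, 0.499, 1.20 and 1.14 in Sel1l CKO, highest in Sel1l CKO replicates 3 and 4. Since the genes differ in length, these ratios compare libraries and not the levels of the genes. Fosb reads per Fos read were 0.428, 0.273, 0.367 and 0.308 in control and 0.502, 0.415, 0.852 and 0.572 in Sel1l CKO. The 4 AP-1 genes together took between 62.2% and 74.5% of the reads on the list in the 8 libraries. These ratios were chosen after the levels had been seen, and no test was made of them.

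Egr1, a zinc finger factor on chromosome 18, had 5.26, 4.94, 48.4 and 34.7 RPKM in control, against 3.07, 2.93, 7.67 and 8.34 RPKM in Sel1l CKO. Both Sel1l CKO libraries were below both control libraries within each pair of replicates, while Sel1l CKO replicates 3 and 4 were above control replicates 1 and 2. Its log2 difference of -1.54 (SE 0.77) was the largest of the list. It was also the one that varied most between pairs of replicates, from -0.75 in replicates 1 and 2 to -2.34 in replicates 3 and 4, where Sel1l CKO was at 19.3% of control. The gap between the pairs of replicates was 7.90-fold in control and 2.61-fold in Sel1l CKO.

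Klf6, another zinc finger factor (chromosome 13, 5861482 to 5870394, plus strand), had 6.02, 5.04, 39.5 and 30.5 RPKM in control, against 3.96, 5.09, 11.5 and 12.7 RPKM in Sel1l CKO. In replicates 1 and 2 the genotypes overlapped, with Sel1l CKO replicate 2 just above control replicate 2. In replicates 3 and 4 the Sel1l CKO mean was 34.5% of the control mean. Over all libraries the log2 difference was -0.90 (SE 0.71).

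Nr4a1, the nuclear receptor gene (chromosome 15, 101254269 to 101274795, plus strand), had 2.65, 2.57, 11 and 10.7 RPKM in control, against 2.41, 2.12, 6.92 and 6.04 RPKM in Sel1l CKO. Replicates were close to each other within each pair, and the Sel1l CKO libraries were the lower ones in both pairs, at 86.8% of control in replicates 1 and 2 and 59.7% in replicates 3 and 4. Its log2 difference of -0.47 (SE 0.59) was the smallest after that of Fosb.

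Ier2 (chromosome 8, 84661331 to 84662852, minus strand) had 27.7, 25.4, 94.7 and 91.5 RPKM in control, against 24.2, 20.9, 25.3 and 32.8 RPKM in Sel1l CKO. The 4 Sel1l CKO libraries were all near the level of control replicates 1 and 2, and control replicates 3 and 4 alone stood apart. The log2 difference was -0.24 in replicates 1 and 2 and -1.69 in replicates 3 and 4. The gap between pairs of replicates was 3.5-fold in control and 1.28-fold in Sel1l CKO.

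Dusp1 (chromosome 17, 26505590 to 26562128, minus strand) had 18.2, 15.6, 81.6 and 70.5 RPKM in control, against 11.8, 10.3, 31.2 and 32.4 RPKM in Sel1l CKO. It followed the order of Fos, with control replicates 3 and 4 highest, then Sel1l CKO replicates 3 and 4, control replicates 1 and 2, and Sel1l CKO replicates 1 and 2. The log2 difference was -0.93 (SE 0.62), at -0.61 in replicates 1 and 2 and -1.25 in replicates 3 and 4.

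Btg2 (chromosome 1, 134075170 to 134079120, minus strand) had 38.0, 47.1, 82.0 and 73.9 RPKM in control, against 32.3, 20.5, 29.3 and 31.2 RPKM in Sel1l CKO. Every Sel1l CKO library was below every control library, and the Sel1l CKO libraries did not separate by pair of replicates. The mean was 60.2 ± 21.1 RPKM in control, against 28.3 ± 5.35 in Sel1l CKO, a log2 difference of -1.04 with the smallest standard error of the list, 0.25. The gap between pairs of replicates was also the smallest in the list, at 1.84-fold in control and 1.17-fold in Sel1l CKO.

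Levels between genes can be compared only per length, and the deposited values divide by the span of a gene with its introns for Fos, Jun, Egr1, Ier2 and Btg2, and by lengths other than the annotated span for the remaining 5. Rescaled to the length of the annotated exons, the control means ran in the order Jun (303 RPKM), Junb (267), Fos (179), Btg2 (86.8), Ier2 (59.8), Klf6 (41.1), Dusp1 (41.1), Egr1 (26.8), Fosb (22.7) and Nr4a1 (15.2). For Junb and Dusp1 the annotated exons (2301 and 3311 bases) exceed the lengths solved from the values (1840 and 2930 bases), so rescaling lowered both. As deposited, the control mean of Junb (333 RPKM) was above that of Jun. Sel1l CKO means on the same scale were Junb 125, Jun 96.1, Fos 69.3, Btg2 40.8, Ier2 25.8, Dusp1 18.9, Klf6 16.8, Fosb 16.8, Nr4a1 9.91 and Egr1 6.33 RPKM. Jun and Junb led in both genotypes, and Egr1 ranked above Fosb and Nr4a1 in control and below them in Sel1l CKO. Neighbours in these orders differed by less than the larger of their SDs over 4 libraries, with 1 exception, Btg2 (40.8 ± 7.71 RPKM) above Ier2 (25.8 ± 5.05) in Sel1l CKO.

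Taken over the list, the mean log2 value was lower in Sel1l CKO for 10 of the 10 genes, against 47.4% of the 6512 genes tested (mean RPKM of at least 1, log2 of RPKM plus a pseudocount of 0.1). The median log2 difference of the list was -1.0, and that of all tested genes was 0.01. Within replicates 1 and 2 the median of the list was -0.60 and within replicates 3 and 4 it was -1.44, against medians of 0.03 and 0.0017 over all tested genes. The more negative difference was in replicates 3 and 4 for 10 of 10 genes, against 51.9% of all tested genes. In replicates 3 and 4, 8 of the 10 genes had both Sel1l CKO libraries below both control libraries by at least 2-fold in mean log2, against 0.676% of all tested genes, the exceptions being Fosb and Nr4a1. The same held for 1 of 10, Jun, in replicates 1 and 2, against 0.891%. Every Sel1l CKO library was below every control library for 2 of 10, Jun and Btg2, against 5.59%. The list was chosen with these values known, so its counts are a description. Leaving out 1 library moved the median of the list from -1.36 (without control replicate 2) to -0.64 (without control replicate 4), and with limma array weights it was -0.38.

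**Figure D2:**
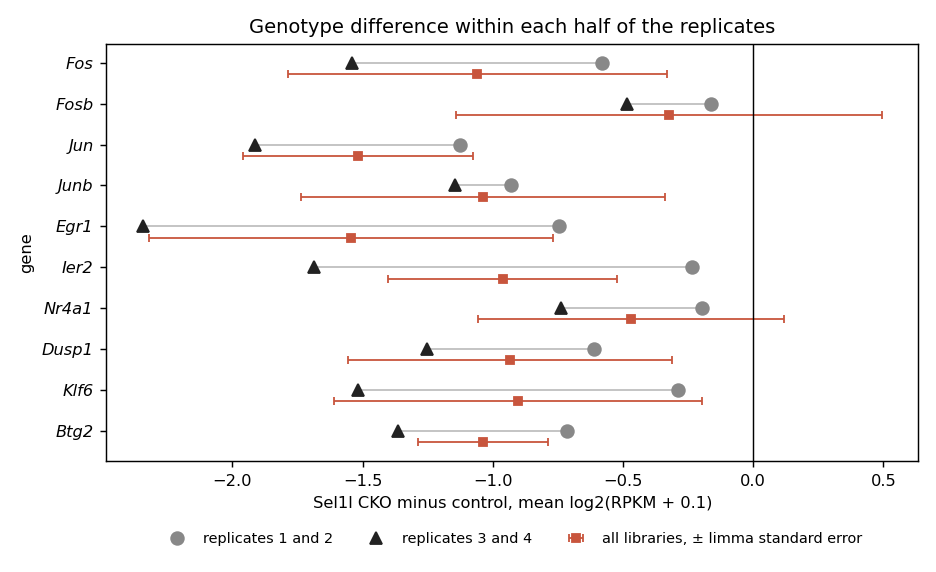
Sel1l CKO minus control in mean log2(RPKM + 0.1) for each gene (x axis), within replicates 1 and 2 (grey circles), within replicates 3 and 4 (black triangles) and over all 8 libraries (red squares, bars are ± the limma standard error). All circles and triangles are left of 0, and each triangle is left of its circle, from a gap of 0.21 in Junb to 1.60 in Egr1.

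In the fit across all 6512 genes with genotype as the only term (limma's moderated test, Benjamini-Hochberg adjustment), 344 genes (5.28%) passed an adjusted p of 0.05, 66 of them lower in Sel1l CKO (1.01% of tested genes), and 1 of the 10 genes, Btg2, was among these. With replicates 1-2 against 3-4 as a further term, 8 of the 10 passed, all but Fosb and Ier2, against a background of 2.79% called lower. In replicates 1 and 2 alone 3 passed, Dusp1, Egr1 and Jun, against 4.41% called lower, and in replicates 3 and 4 alone 9 passed, all but Fosb, against 0.998%. Since these contrasts chose the genes, nothing is read from these counts. Leaving out control replicate 3, control replicate 4 or any 1 of the 4 Sel1l CKO libraries took Btg2 out of the calls, so that 0 of the 10 remained. Sel1l itself was at 1.67 ± 0.11 RPKM in control, against 1.09 ± 0.22 in Sel1l CKO, with an adjusted p of 0.0327 by limma, at a log2 difference of -0.89 in replicates 1 and 2 and -0.30 in replicates 3 and 4. RPKM counts all reads left on the gene, so it does not measure how complete the deletion was. The authors report efficient depletion in this model, by quantitative RT-PCR of Sel1l and a western blot of SEL1L in sorted DN3 cells. The call of Sel1l was lost in 6 of the 8 fits that left out 1 library (without any 1 control library, or Sel1l CKO replicate 1 or 2, with limma adjusted p up to 0.0984) and in replicates 3 and 4 alone (0.199). Replicates 3 and 4, with the smaller Sel1l difference, had the larger difference in each of the 10 genes. The 10 genes were chosen with these values known, and a link with the Sel1l level was not tested.

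Between pairs of replicates of the same genotype, 10 of 10 genes had both control replicates 3 and 4 above both control replicates 1 and 2, against 15.9% of tested genes. The difference was at least 2-fold in mean log2 for 9 of 10, all but Btg2, against 1.11%. In Sel1l CKO the order was the same for 9 of 10, all but Btg2, against 31.3%, and at least 2-fold for 7 of 10, the exceptions being Jun, Ier2 and Btg2, against 1.17%. The median difference of the list, replicates 3 and 4 minus replicates 1 and 2, was 2.16 in control and 1.44 in Sel1l CKO on the log2 scale, against -0.0079 and -0.02 over all tested genes. For 7 of the 10 genes both Sel1l CKO replicates 3 and 4 were above both control replicates 1 and 2, against 25.4% of tested genes. The exceptions were Jun, Ier2 and Btg2.

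**Figure D3:**
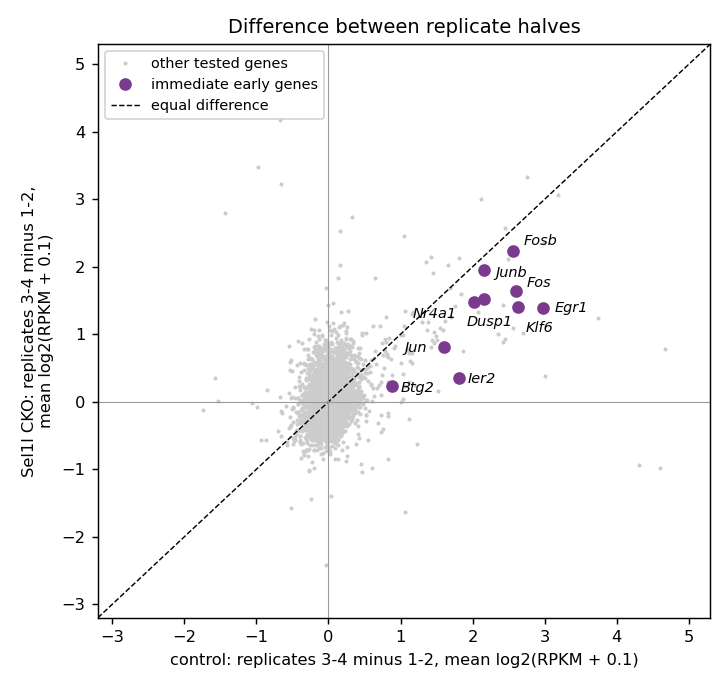
Difference between replicates 3-4 and replicates 1-2 in mean log2(RPKM + 0.1), in control (x axis) and in Sel1l CKO (y axis), with the 10 immediate early genes in purple and the other tested genes in grey; the dashed line marks equal differences. The 10 genes lie to the right of the vertical line and below the dashed line, from Btg2 at 0.88 and 0.23 to Egr1 at 2.98 and 1.39.

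The 10 genes shared most of this profile over the 8 libraries. After centring each gene's log2 values on its own mean, the median profile of the list was -0.58, -0.75, 1.61 and 1.48 in control replicates 1 to 4 and -1.04, -1.41, 0.19 and 0.32 in Sel1l CKO replicates 1 to 4. Dusp1 lay nearest to the median of the other 9 genes, with a mean absolute difference of 0.09 log2 units, and Btg2 farthest, at 0.68. Of the genes outside the list, those with the most similar profile, by the same measure over the 8 libraries, were Ppp1r15a (0.11), Rgs2 (0.18), Spsb2 (0.26), Fzd9 (0.27), H1f2 (0.27), Id2 (0.28), Plk3 (0.29), Ccrl2 (0.29), Hes1 (0.31) and Zfp36 (0.31). Ppp1r15a encodes GADD34, the phosphatase subunit that reverses eIF2α phosphorylation, and had 32.8, 29.1, 162 and 171 RPKM in control, against 25.2, 24.1, 63.6 and 69.8 RPKM in Sel1l CKO. Rgs2, a regulator of G protein signalling, had 10.9, 12.3, 45.2 and 31.8 RPKM in control, against 8.35, 7.77, 18.3 and 20.4 RPKM in Sel1l CKO. Both have the same order as Fos and Dusp1, with Sel1l CKO replicates 3 and 4 between the control pairs. Hes1, a target of Notch, had 23.7, 28.7, 90.7 and 59.3 RPKM in control, against 19.5, 11.5, 28.1 and 31.3 RPKM in Sel1l CKO. Zfp36, which encodes the mRNA-destabilizing protein tristetraprolin, had 7.95, 5.88, 32.2 and 52.1 RPKM in control, against 4.49, 6.30, 9.31 and 14.1 RPKM in Sel1l CKO.

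Other genes of the same response were counted on lists drawn up by function, with earlier results of these data known. Of 51 further immediate early and feedback genes (10 of the AP-1 family, 16 transcription factors and 25 feedback regulators), 33 passed the filter, and 0 of these were called between genotypes by limma, with 4 at an unadjusted p under 0.05 against 1356 of all 6512 genes. Their mean was lower in Sel1l CKO for 25 of 33, with a median log2 difference of -0.35. With replicates 1-2 against 3-4 as a term 5 were called, all lower in Sel1l CKO (Ier3, Zfp36l1, Dusp2, Ppp1r15a and Jund), with adjusted p between 0.002 and 0.0426 by limma, where 2.79% of all tested genes were called lower. In replicates 1 and 2 alone 4 were called (Per1, Zfp36l1, Sik1 and Dusp2), where 4.41% of all tested genes were called lower, and in replicates 3 and 4 alone 9 were called (Ier3, Gadd45b, Plk3, Gadd45a, Ppp1r15a, Zfp36, Rhob, Klf2 and Jund), where 0.998% were, all lower in Sel1l CKO. These names were chosen after their values had been seen. Dusp2, a nuclear MAP kinase phosphatase, had 46.3, 40.5, 73.3 and 53.3 RPKM in control, against 26.6, 24.3, 38.2 and 34 RPKM in Sel1l CKO, with an adjusted p of 0.0576 by limma. It was the 1 gene of the 33 with every Sel1l CKO library below every control library, against 5.59% of all tested genes.

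Myc did not follow the order of the 10 genes. This growth regulator had 58.1, 64.4, 57.1 and 53.9 RPKM in control, against 78.2, 59.1, 54.7 and 58.9 RPKM in Sel1l CKO, with a log2 difference of 0.09 (SE 0.11, limma adjusted p = 0.668), and its replicates 3 and 4 were not above replicates 1 and 2 in either genotype. Jund had 84.5, 80.4, 241 and 205 RPKM in control, against 72.3, 57.0, 112 and 130 RPKM in Sel1l CKO, with a log2 difference of -0.62 (SE 0.41). Csrnp1, a nuclear factor induced by AXIN1, had a log2 difference of -0.35 (SE 0.50), Mafk, a small MAF protein, -0.24 (SE 0.18), and Zfp36l2, an mRNA-destabilizing protein, -0.12 (SE 0.23). Of the 33 genes, 19 were at least 2-fold higher in replicates 3 and 4 in control and 15 in Sel1l CKO by mean log2, against 73 and 78 of all 6512 genes. A further 18 of the 51 genes were under the filter, Egr2, Egr3, Egr4, Nr4a2 and Nr4a3 among them. The mean log2 value of 16 of these 18 was lower in Sel1l CKO, against 47.4% of the genes above the filter, which have higher levels. In an exact two-sided permutation test over the 70 assignments of the 8 libraries 1, Nr4a3, had p under 0.05 (p = 0.0286, the smallest this design allows) and 0 passed after adjustment over the 18 (smallest adjusted p = 0.515). A gene at this smallest p cannot pass that adjustment unless most of the 18 reach it, so nothing is read from the adjusted result. Egr2, which acts downstream of the pre-T cell receptor, was at 0.474 ± 0.364 RPKM in control, against 0.179 ± 0.062 in Sel1l CKO (exact permutation p = 0.257).

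The kinases and transcription factors upstream of these genes were followed by their RNA alone. Of 31 genes for MAP kinase and SRF signalling, 29 were in the table under the symbols used and 18 passed the filter. Of these, 0 were called by limma, against 5.28% of all tested genes, and 5 had an unadjusted p under 0.05, against 1356 of all 6512 genes. Every Sel1l CKO library was below every control library for 1 of the 18, against 364 of all 6512 genes. This was Creb1, named after its value had been seen. Every Sel1l CKO library was above for 4, against 596. The median log2 difference of the 18 was 0.0068. In either genotype 0 of the 18 were at least 2-fold higher in replicates 3 and 4, against 73 (control) and 78 (Sel1l CKO) of all 6512 genes. Nras was at 11.9 ± 0.53 RPKM in control, against 12.4 ± 0.85 in Sel1l CKO, and Map2k7, a kinase upstream of JNK, was at 10.3 ± 0.22 and 9.71 ± 1.01 RPKM. Among 8 tested genes of the NF-κB response, 3 were called lower in Sel1l CKO by limma (1.01% of all tested genes were), namely the cytokine Tnf (log2 difference -1.46, SE 0.35, adjusted p = 0.0484), the adhesion molecule Icam1 (-0.59, SE 0.11, adjusted p = 0.0112) and the inhibitor Nfkbie (-0.47, SE 0.10, adjusted p = 0.0346). Icam1 stayed called when any 1 library was left out. Nfkbie lost its call in 6 of these 8 fits (without any 1 control library, or Sel1l CKO replicate 1 or 2, adjusted p up to 0.104), and Tnf in 6 (without control replicate 1, 3 or 4, or Sel1l CKO replicate 1, 2 or 3, up to 0.119). Icam1 and Nfkbie differed between genotypes with little difference between pairs of control replicates, 0.02 and -0.03 on the log2 scale. Of 15 tested genes of the β-selection response 0 were called by limma, against 5.28% of all tested genes. At an unadjusted p under 0.05 there were 6, against 1356 of all 6512 genes, and the median log2 difference of the 15 was -0.25. Its most abundant members were Tcf7, encoding the transcription factor TCF1, at 81.1 ± 5.47 RPKM in control, against 86.3 ± 5.27 in Sel1l CKO, and Rag1, the recombinase, at 70.4 ± 6.56 and 59.7 ± 13.6 RPKM.

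Among cytosolic heat shock genes, Hspa1a and Hspa1b were highest in the same control libraries as the 10 genes, but were not high in Sel1l CKO replicates 3 and 4. Hspa1a, the inducible HSP70, had 50.5, 16.1, 460 and 1059 RPKM in the control libraries, in the order of replicates 1 to 4, against 7.18, 3.75, 2.14 and 3.15 RPKM in the Sel1l CKO libraries. The control pairs differed by 4.61 on the log2 scale, in the same direction as the 10 genes, whereas in Sel1l CKO replicates 3 and 4 were 0.97 lower than replicates 1 and 2. Of 15 tested heat shock genes 6 were called lower in Sel1l CKO by limma, against 1.01% of all tested genes, including Hspa1a (adjusted p = 0.0338), Hspa1b (0.0333), Hsph1 (0.00786) and Hsp90aa1 (0.00965). Hspa1a and Hspa1b lost their calls in 6 of the 8 fits that left out 1 library (without control replicate 3 or 4, or any 1 Sel1l CKO library, with adjusted p up to 0.0949 and 0.0947), while Hsph1 and Hsp90aa1 stayed called in all 8. Their median difference between pairs of replicates was 0.26 in control and -0.18 in Sel1l CKO. Control replicates 3 and 4, the libraries with the highest immediate early values, were thus also the highest in Hspa1a, while Sel1l CKO replicates 3 and 4 had 9 of the 10 genes above replicates 1 and 2 and Hspa1a below them. The part of the heat shock difference in the immediate early values was not tested.

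**Figure D4:**
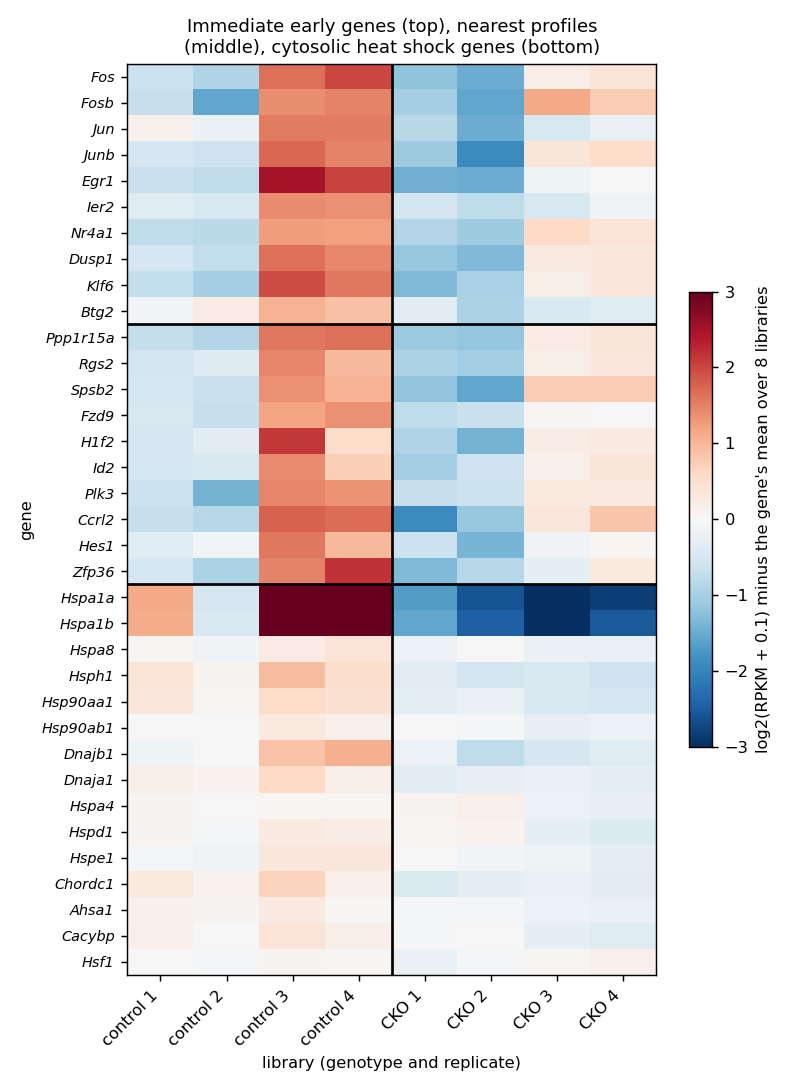
Log2(RPKM + 0.1) minus the mean of each gene over the 8 libraries (colour, red above and blue below, limited to 3 in either direction), for the 10 immediate early genes, the 10 genes with the nearest profiles and the 15 tested cytosolic heat shock genes, with libraries as columns. The first 20 genes are red in control replicates 3 and 4, and most of them are pale in Sel1l CKO replicates 3 and 4, where Hspa1a and Hspa1b are deep blue.

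Markers of the sorted cells and of other cell types were set beside these values. The 15 DN3 markers were all above the filter, with summed levels of 560 to 672 RPKM in control and 483 to 527 RPKM in Sel1l CKO, and all 8 markers of progenitors and DN2 cells were under it, with sums of 0.228 to 0.656 RPKM. Sums for B cell (5.38 to 10.3 RPKM), myeloid (1.93 to 6.25), dendritic (1.16 to 3.36), γδ T cell (1.47 to 2.27) and erythroid genes (0.0657 to 2.68) were low in all libraries, and those for epithelium and stroma were 4.32 to 6.18 RPKM in control and 2.87 to 3.60 RPKM in Sel1l CKO. The defining markers Pax5, Csf1r, Itgam, Itgax, Foxn1 and Krt5 were under 0.1 RPKM in every library, and Il17a and Alas2 were at 0. NK markers summed to 57.4 to 68.0 RPKM in control and 44.2 to 53.8 RPKM in Sel1l CKO. Of the 6 listed, 2 passed the filter, the higher being Nkg7 with a mean of 31.5 RPKM over the 8 libraries. Nkg7 thus did not make up the whole sum. Klrb1c, Klrd1 and Eomes were under 0.1 RPKM in every library. The sum for double positive and mature αβ T cells was 3.93 to 36.6 RPKM in control and 4.67 to 7.97 RPKM in Sel1l CKO. It was highest in control replicates 3 and 4, the same libraries in which the 10 genes were highest. This sum followed Klf2, a transcription factor of mature T cells that is itself among the further immediate early genes above, though not among the 10. In control replicates 1 to 4 the sum was 5.20, 3.93, 18.1 and 36.6 RPKM, of which Klf2 alone had 2.07, 1.28, 16.2 and 32.7 RPKM. The part of such cells in the immediate early values was not tested.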

How the data were processed

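RNA from sorted DN3 thymocytes was sequenced in 4 control and 4 Sel1l CKO libraries, samples being grouped by the genotype in their labels. The authors made stranded mRNA libraries, aligned paired-end reads to GRCm38 with STAR (2.5.2b), ran HTSeq (2.7) over protein-coding genes and deposited RPKM, with a column for each library. Whether counting used the strand is not given in the sources used here. Their own test was DESeq2 on counts, which were not used here.

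Of 5745 genes with under 200 reads, 86.1% gave whole reads (within 0.05 reads) on GENCODE M21 spans, which gave the library depths. For Fosb, Junb, Nr4a1, Dusp1 and Klf6 the length was solved from the steps. Depth sets the precision, and low genes rest on few reads.

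Genes whose RPKM averaged 1 or more were tested as log2(RPKM + 0.1) in R 4.3.3 with limma 3.58.1 (mean-variance trend, two-sided, Benjamini-Hochberg adjustment), genotype as the only term. Fold changes of low genes are understated on this scale. The procedure was tested on simulated data. Python 3.11.15, numpy 2.4.6, pandas 2.3.3 and matplotlib 3.10.9 were used for the rest. The genes named are the 10 genes, Sel1l, of each other list its called members (at most 4, by size of change) or its 2 most abundant, and the 10 nearest profiles. Others are marked in the text. The members and the lists were chosen with earlier results of these data known. Alternatives were 2 pseudocounts, 2 filters, 3 scalings, 2 variance models, a replicate block, the term for pairs of replicates, each pair alone, and the fits that left out each of the 8 libraries in turn. Promoter sequences are from RefSeq (GRCm38.p6).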

Additional observations from a re-analysis of the deposited data

Results flagged for a closer look

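Of 74 groups of 4 libraries examined for the named genes, 2 held a library far from the other 3, where chance gives about 3.7. Mafk was at 11.9 RPKM in control replicate 3, against 7.78 to 7.99 RPKM in the other 3 control libraries. Zfp36l2 was at 215 RPKM in control replicate 4, against 292 to 307 RPKM in the other 3. None of the 10 immediate early genes was among them, since their control values fell into 2 pairs.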

How the results depend on the processing

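The median log2 difference of the 10 genes (-1.0) kept its direction under every alternative run (-0.38 with array weights) and ran from -1.36 (without control replicate 2) to -0.64 (without control replicate 4) when 1 library was left out. With no filter on low values 0 of the 10 genes were called (1 as reported). Single genes reversed in 5 cases: Fosb to 0.58 with array weights, 0.09 without control replicate 3, 0.12 without control replicate 4 and 0.14 without Sel1l CKO replicate 2 (lowest -0.90, without control replicate 2), and Nr4a1 to 0.16 with array weights. Genes called over the whole table (344) were 218 with a mean RPKM of at least 5, where fewer genes are tested, 640 with array weights, 525 with pairs of replicates as a term, 585 in replicates 1 and 2 alone and 243 to 317 with 1 library left out. Other immediate early and feedback genes called (0) were 1 with a mean RPKM of at least 5, with libraries rescaled to 1 sum or with quantile normalization, 5 with pairs of replicates as a term, 4 and 9 in replicates 1-2 and 3-4 alone, and 0 to 1 with 1 library left out. The cause of these moves was not tested. The replicate numbers did not pair the samples (same-number correlations of deviations 0.162, 0.097, 0.445 and 0.005, and not every sample correlated best with its own number). Between replicates 1 and 2 of the genotypes the correlations over all tested genes were 0.097 to 0.292. Control replicate 3 correlated at 0.445 and 0.404 with Sel1l CKO replicates 3 and 4, but control replicate 4 at -0.083 and 0.005. With the replicate block, 317 genes were called over the whole table and 2 of the other immediate early and feedback genes (Ier3 and Dusp2), and 6 of the 10 genes (Btg2, Fos, Dusp1, Egr1, Jun and Junb) were called in place of 1, where 81 of 6512 genes were called lower. The 10 genes were chosen on these same contrasts, so nothing is read from how many of them were called under any alternative. Of the other 12 or 13 alternatives, Sel1l and Nfkbie each lost their calls under 4 (no filter, rescaling to 1 sum, the replicate block, replicates 3 and 4 alone), Tnf under 5 (pseudocount 1, no filter, quantile normalization, each pair of replicates alone), Icam1 under 2 (each pair alone), Hspa1a and Hspa1b under 2 (no filter, replicates 1 and 2 alone) and Hsp90aa1 under 1 (replicates 1 and 2 alone). Among genes called, 102 lower and 262 higher came with quantile normalization, against 66 and 278. Depth did not limit the 10 genes, the lowest having 601 reads, but the 18 genes under the filter rest on low values.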
